A study of Rattus norvegicus with 8 samples.

Results

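The genes described here are 9 cytochrome P450 genes of families 1 to 3 and Por, which encodes their electron donor. They were taken by their identifiers, as every non-control feature of the 8 arrays whose identifier was NM_012540 (Cyp1a1), NM_012541 (Cyp1a2), NM_012692 (Cyp2a1), NM_012693 (Cyp2a2), NM_031543 (Cyp2e1), NM_153312 (Cyp3a2), NM_147206 (Cyp3a9), NM_145782 (Cyp3a18), NM_013105 (Cyp3a23) or NM_031576 (Por). The rule itself uses no measured value. It gave 10 genes of 36958 distinct identifiers, with 11 probes and 29 features of 41012 probes and 43379 non-control features on each array. Cyp1a2 had 2 probes, and the probes of Cyp1a1 and Cyp2e1 were each printed 10 times.

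The study asked which genes respond in rat gut, spleen and liver to lavender oil (LO) given by mouth. Male rats 7 weeks old, 6 in each group, received LO at 5 mg/kg in 10% ethanol once a day for 13 days, and the control rats received 10% ethanol alone. The sample characteristics name the strain as Wistar, whereas the growth protocol and the study's methods name it as Fischer (F334), and this was not settled. Total RNA was pooled within a group, and each array carried a control pool and an LO pool of the same tissue, labelled with Cy3 and Cy5. LO was in Cy5 on replicate 1 and in Cy3 on replicate 2, so both arrays of a pair hold the same RNA and were counted as 1 replicate. The small intestine and the spleen had 1 pair of pools each, and the liver had 2, named pool 1 and pool 2 here. How the liver pools differ, and whether they hold different rats, is not given in the sources used here.

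P450 enzymes of families 1 to 3 oxidize drugs, plant terpenes and other foreign compounds, mostly in the liver and, for some of them, in the gut wall. Their genes are known to be regulated by receptors that bind such compounds. The aryl hydrocarbon receptor acts on Cyp1a1 and Cyp1a2, and the nuclear receptors PXR and CAR act on Cyp3a and Cyp2b genes. Several of the rat genes, among them Cyp2a2, Cyp3a2 and Cyp3a18, are also known as genes whose liver expression is higher in males. NADPH-cytochrome P450 reductase, the product of Por, passes electrons to all microsomal P450s and is made in most tissues.

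Per array, 44.3% to 64.7% of features passed the software's background flag in both dyes, and no feature was saturated. Of 12 liver marker genes 12 were above background in every liver pool, as were all 8 measured enterocyte marker genes in the small intestine and all 6 measured spleen and blood cell marker genes in the spleen. The small intestine pools also carried pancreas RNA. All 12 pancreas markers were above background there, with a summed signal of 1172788 in the control pool and 1021195 in the LO pool, against 1522 to 1680 in the spleen and 4377 to 5885 in the liver. In the small intestine, 8 of 12 liver markers were also above background, and Alb, Ahsg, Apoh and Tat were not. In the spleen 6 of 12 liver markers were above background at a summed signal of 7534 (control) and 7959 (LO). Most of this sum was Tf, at 6773 and 6897. Over the 9 liver marker probes above background in the spleen, the median log2 LO/control was 0.55, with a range of -0.07 to 0.65. The median over all 22800 probes above background there was -0.0094. The part of these RNAs in the results for the small intestine and the spleen was not tested.

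The genes fell into clear tissue patterns. Cyp1a1 was measured only in the small intestine, and Cyp1a2, Cyp2a1, Cyp2a2, Cyp2e1, Cyp3a2 and Cyp3a23 were above background throughout only in the liver. Cyp3a9 and Cyp3a18 were above background in the small intestine and the liver, and Por in all 3 tissues. Signals are given below as the background-subtracted, dye-normalized intensity, scaled between arrays (Aquantile) and averaged over the 2 dyes of a pool, and they are not compared between probes. Whole tissue was used, so fewer cells of a type and less RNA per cell cannot be told apart. By the slide identifiers in the file headers, each tissue was on a slide of its own, so slide and tissue cannot be told apart either.

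**Figure D1:**
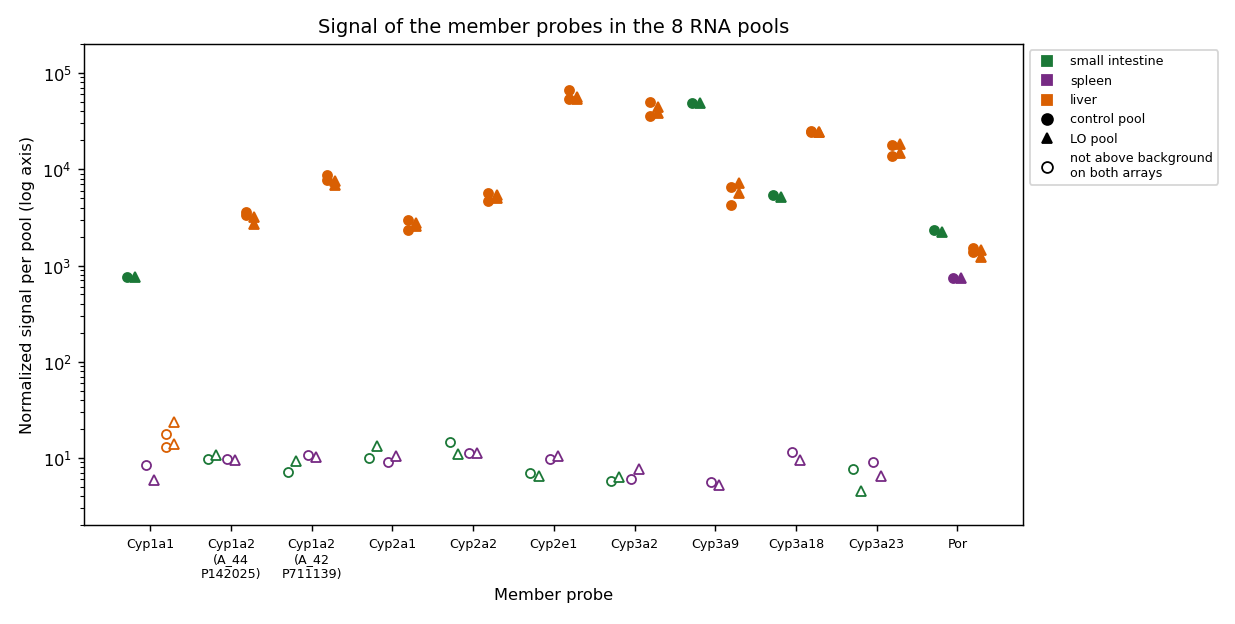
Normalized signal (log axis) of the 11 member probes in the 8 RNA pools, with colour for the tissue, circles for control pools and triangles for LO pools. Open symbols were not above background on both arrays. The only filled spleen symbols are those of Por, at 749 and 734.

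Cyp1a1 encodes the classical enzyme induced through the aryl hydrocarbon receptor. Its signal was 753 in the control pool and 759 in the LO pool of the small intestine. In the liver it was 17.9 and 23.6 in the control and LO pools of pool 1 and 12.9 and 14.0 in those of pool 2. In the spleen it was 8.39 and 5.95. The small intestine pools thus lay above all others, and in the other tissues the probe was not well above background, although 1 or 2 of its 10 copies were on some arrays. Its level was at least 23.4-fold higher in the small intestine than in the liver and at least 43.3-fold higher than in the spleen (limma adjusted p = 2.12e-05 and 2.59e-05). The probe passed the filter on dim signals through the small intestine alone, so these p-values are a description.

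Cyp1a2, which oxidizes caffeine and aromatic amines, lies next to Cyp1a1 on chromosome 8 with no annotated gene between their starts. It showed the opposite distribution. With probe A_42_P711139 the liver signals were 8663 (control) and 6842 (LO) in pool 1 and 7653 and 7474 in pool 2. With probe A_44_P142025 they were 3607, 2689, 3366 and 3219 in the same order. In both probes the LO pool of pool 1 was the lowest liver pool. No small intestine or spleen pool exceeded 10.8 with either probe, and none was above background. The liver was at least 442-fold and at least 182-fold above the small intestine with the respective probes (limma adjusted p = 2.50e-07 and 3.02e-07). Both probes passed the filter on dim signals through the liver alone, so these p-values are a description.

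Cyp2a1 and Cyp2a2, neighbours on chromosome 1 with no annotated gene between them, encode steroid hydroxylases. Cyp2a1 gave 2979 and 2763 in liver pool 1 (control, LO) and 2316 and 2602 in liver pool 2. Cyp2a2 gave 5666, 5395, 4713 and 5036 in the same order. In both genes the control pools of the liver were the highest and the lowest of the 4 pools. Cyp2a1 was at least 148-fold higher in the liver than in the small intestine and at least 151-fold higher than in the spleen. Cyp2a2 was at least 297-fold higher in the liver than in the spleen. It was also higher than in the small intestine, for which no fold is given because 1 of 4 channels there was above background. Cyp2e1, which oxidizes ethanol, the vehicle of both groups, gave 65762 and 56528 in liver pool 1 and 53979 and 53119 in pool 2, and its liver level was at least 3309-fold above that of the small intestine. All of these differences passed the limma test, with adjusted p between 8.55e-08 and 4.76e-07. These genes passed the filter on dim signals through the liver alone, so the p-values are a description.

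The Cyp3a genes encode steroid and drug hydroxylases and lie on chromosome 12. Cyp3a2 and Cyp3a23, with no annotated gene between their starts, were above background only in the liver. Cyp3a2 gave 49502 and 44217 in liver pool 1 and 35811 and 37984 in pool 2, at least 2405-fold above the small intestine. Cyp3a23 gave 17955, 18252, 13749 and 14597, at least 927-fold above it. In both genes the pool 1 values were above those of pool 2, whatever the treatment.

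Cyp3a18 and Cyp3a9 were measured in the gut as well. Cyp3a18 gave 25058 and 24180 in liver pool 1, 24549 and 24500 in pool 2, and 5372 and 5208 in the small intestine. It was 4.64-fold higher in the liver (log2 difference 2.22 ± 0.10 SE, limma adjusted p = 1.18e-05). Cyp3a9 ran the other way, with 48940 and 48426 in the small intestine, 6528 and 7159 in liver pool 1 and 4284 and 5608 in pool 2. It was 8.41-fold higher in the small intestine (log2 difference liver minus small intestine -3.07 ± 0.22 SE, limma adjusted p = 7.24e-05). In the spleen no pool exceeded 11.5 for Cyp3a18 or 5.70 for Cyp3a9. The small intestine was at least 296-fold above the spleen for Cyp3a18 and at least 2788-fold above it for Cyp3a9.

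The 250 bases upstream of the annotated starts of these 4 genes (RefSeq, GRCr8) are shown as a description. Their part in the tissue patterns was not tested. The intervals are chr12:14343858-14344107 (minus strand) for Cyp3a2, chr12:14398804-14399053 (minus strand) for Cyp3a23-3a1, which is the current symbol of Cyp3a23, chr12:21960161-21960410 (minus strand) for Cyp3a9 and chr12:13994062-13994311 (plus strand) for Cyp3a18. Capitals mark the hexamers AGTTCA and AGGTCA on either strand, which are known as recognition motifs of nuclear receptors.
Cyp3a2: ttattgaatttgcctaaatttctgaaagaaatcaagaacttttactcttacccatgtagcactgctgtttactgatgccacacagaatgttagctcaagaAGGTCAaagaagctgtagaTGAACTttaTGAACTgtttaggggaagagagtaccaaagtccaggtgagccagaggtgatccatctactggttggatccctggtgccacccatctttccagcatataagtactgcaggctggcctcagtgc
Cyp3a23-3a1: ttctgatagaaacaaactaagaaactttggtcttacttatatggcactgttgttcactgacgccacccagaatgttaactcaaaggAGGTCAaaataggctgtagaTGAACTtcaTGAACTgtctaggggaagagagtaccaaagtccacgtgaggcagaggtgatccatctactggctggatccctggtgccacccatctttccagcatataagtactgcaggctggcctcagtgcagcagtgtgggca
Cyp3a9: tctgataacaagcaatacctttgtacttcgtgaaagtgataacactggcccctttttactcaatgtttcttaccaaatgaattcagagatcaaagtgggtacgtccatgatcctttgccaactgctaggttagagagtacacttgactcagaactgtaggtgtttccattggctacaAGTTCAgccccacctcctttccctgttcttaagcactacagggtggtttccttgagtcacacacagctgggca
Cyp3a18: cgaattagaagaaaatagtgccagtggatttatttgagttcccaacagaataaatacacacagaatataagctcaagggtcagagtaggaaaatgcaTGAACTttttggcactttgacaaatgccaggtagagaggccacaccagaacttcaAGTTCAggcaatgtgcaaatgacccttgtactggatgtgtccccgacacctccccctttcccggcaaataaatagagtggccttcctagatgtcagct

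AGTTCA on either strand was found in 12.2% of the 33469 RefSeq windows of the same length, and AGGTCA in 14.1%. All 4 Cyp3a windows held AGTTCA. Cyp3a2 and Cyp3a23-3a1 held it as a direct repeat with 3 bases between the copies, starting 131 and 144 bases before the start, and these were the only 2 windows of the 33469 with that repeat. Over an alignment of 265 columns these windows were 79.2% identical, whereas the other 5 pairs of Cyp3a windows were 53.0% to 58.5% identical. The lowest was that of Cyp3a9 and Cyp3a18, the 2 genes also measured in the gut. Of the other members with a window, Cyp1a2, Cyp2e1 and Por held AGGTCA once and Cyp2a1 held neither hexamer. A match is a description of the letters and not of a binding site.

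Por was the only member above background in the spleen. Its signals were 2363 (control) and 2222 (LO) in the small intestine, 1385 and 1213 in liver pool 1, 1504 and 1450 in liver pool 2, and 749 and 734 in the spleen. The tissues did not overlap. The small intestine was 1.66-fold above the liver (log2 difference liver minus small intestine -0.73 ± 0.11 SE, limma adjusted p = 0.00217) and 3.09-fold above the spleen (log2 1.63 ± 0.13 SE, adjusted p = 1.79e-04). The liver was 1.87-fold above the spleen (log2 0.90 ± 0.11 SE, adjusted p = 7.26e-04). Without normalization between arrays the last difference was 0.22 with a limma adjusted p of 0.0903, while the median over all probes moved from -0.10 to -0.68. In the control pools alone, none of the 3 Por differences passed the limma threshold (adjusted p = 0.258, 0.0945 and 0.134 in the order given).

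Over the 11 member probes, 8 were higher and 3 lower in the liver than in the small intestine at a limma adjusted p below 0.05, beside 31% and 33.8% of the 30592 probes tested. Between the liver and the spleen 11 were higher and 0 lower, beside 31.9% and 38.3% of all probes. Cyp1a1 is among them, but neither tissue was above background for it and no fold is given. Between the small intestine and the spleen 4 were higher (22.8% of all probes) and 1 was lower (29.4% of all probes). The last was Cyp2e1, again with neither tissue above background. All 11 probes passed the filter on dim signals, 8 of them through a single tissue and 2 through the liver and the small intestine. A member that passed only through the tissue where it was high had to differ, so these counts and the p-values of such members are a description. Without normalization between arrays, 6394 of all probes were higher and 14191 lower in the liver than in the small intestine, against 9491 and 10333 with it. Against the spleen the split was 6631 and 16096, compared with 9774 and 11708. The median over all probes moved from -0.02 to -0.45 in the comparison with the small intestine. With scaling to the 75th percentile this median was 0.19. Apart from Por against the spleen, every member above background in at least 1 of the tissues kept its direction and its call under both scalings in the comparisons of the liver with the other tissues.

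No member feature met the call rule for LO in any tissue. The rule required an LO/control ratio beyond the cut-offs of 1.5 and 0.75 on Cy5/Cy3, in the matching direction on every array, with the software's P below 0.01 on each. Of all features, 0.0208% met it for the small intestine, 0.0161% for the spleen and 0.00923% for the liver, where all 4 arrays had to meet it. Without the P value these shares were 0.713%, 0.551% and 0.0461%, and 1 of 29 member features then passed, in the spleen. It was a copy of Cyp2e1 whose LO/control ratio was 2.31 on array 1 and 1.37 on array 2, with the software's P above 0.01 on both. Neither channel of that copy was above background on either array, with signals of 5.81 to 13.9. Over all 10 copies the log2 LO/control of Cyp2e1 in the spleen ranged from -0.94 to 1.21 on array 1 and from -0.76 to 0.57 on array 2. The remaining 9 copies did not pass. Alb, the liver marker with the largest difference in the spleen, had a log2 LO/control of 0.92 and 0.38 on these arrays, and its part in the Cyp2e1 value was not tested.

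In the small intestine 4 members could be compared between LO and control. The Cyp1a1 probe gave a log2 LO/control of 0.23 on array 1 and -0.20 on array 2. On both arrays the 10 copies lay close together, between 0.18 and 0.27 on the one and between -0.26 and -0.15 on the other. The sign thus changed with the dye, and the mean was 0.01. Cyp3a9 gave -0.06 and 0.03, Cyp3a18 gave 0.01 and -0.10, and Por gave -0.25 and 0.07. All 4 members had values on both sides of 0. In the spleen Por gave 0.04 and -0.09. These tissues had 1 pair of pools each, so there is no test over animals.

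The repeated probes show how far the ratios can be read. Where Cyp1a1 and Cyp2e1 were above background, the SD of log2 LO/control over the 10 copies of an array was 0.030 to 0.057. In the tissues where they were dim it was 0.37 to 0.84, apart from 0.050 for Cyp1a1 on array 2 of the spleen. There all copies but that at 0.16 had a ratio of exactly 1 although their signals differed, so 0.050 is not a measured spread. Per array, 3827 to 7749 of the features had a ratio of exactly 1. In the liver the dim Cyp1a1 ratios changed sign with the dye. They gave means of -1.04 and 1.84 on the arrays of pool 1 and of -1.20 and 1.40 on those of pool 2, negative where LO was in Cy5 and positive where it was in Cy3. This did not hold for every dim probe, since Cyp2e1 in the spleen gave 0.15 and 0.07. The copies of a probe share their RNA and are not replicates.

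**Figure D2:**
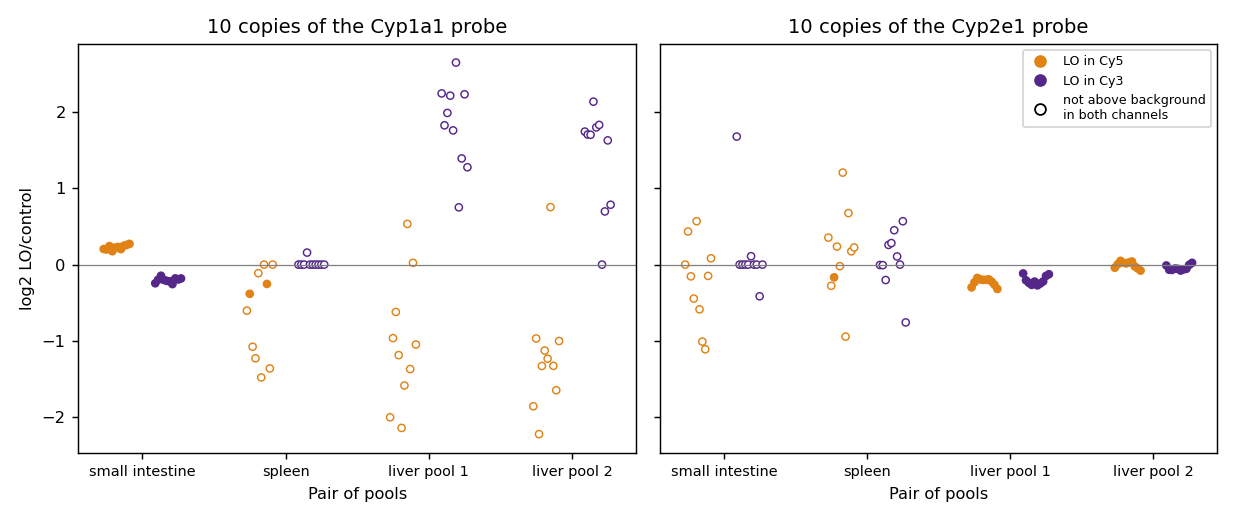
log2 LO/control of each of the 10 copies of the Cyp1a1 probe and the Cyp2e1 probe, by pair of pools and by the dye that carried LO. Open symbols had at least 1 channel not above background. The filled copies of Cyp1a1 in the small intestine lie between -0.26 and 0.27, while the open copies in the liver spread from -2.22 to 2.65.

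In the liver 10 member probes of 9 genes were above background on all 4 arrays, and none passed the limma test over the 2 pools. Of all 30592 probes tested, 0% passed, and 1778 had an unadjusted p below 0.05, none of them a member. The log2 LO/control values of these members lay between -0.50 and 0.39 on any array, a ratio of 0.709 to 1.31.

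Cyp3a9 had the largest mean difference among them. Its log2 LO/control was 0.20 and 0.07 on the arrays of pool 1 and 0.39 and 0.39 on those of pool 2, higher under LO on 4 of 4 arrays. The mean was 0.26 ± 0.10 SE, a 1.20-fold ratio with a 95% interval of 0.914 to 1.57 (limma adjusted p = 0.83). With normexp background correction and loess it was 0.26 ± 0.06 SE with a limma adjusted p of 0.0298, and was the only member called among 150 probes called of 30592. Over the alternatives that tested it, the adjusted p was 0.0298 to 1.

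Cyp1a2 was lower under LO in pool 1 and near 0 in pool 2. Probe A_44_P142025 gave -0.41 and -0.44 in pool 1 and 0.02 and -0.15 in pool 2, and probe A_42_P711139 gave -0.18, -0.50, 0.11 and -0.18. Each was below 0 on 3 of 4 arrays. The means were -0.24 ± 0.13 SE and -0.19 ± 0.11 SE (limma adjusted p = 0.841 for both), with 95% intervals of 0.591 to 1.21 and 0.643 to 1.20 for the ratio.

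Cyp2e1 gave -0.23 and -0.21 in pool 1 and -0.0031 and -0.043 in pool 2, and Por gave -0.27, -0.12, -0.06 and -0.05. Both were below 0 on 4 of 4 arrays, and in both pool 1 was the lower. The mean was -0.12 ± 0.08 SE for Cyp2e1 and -0.12 ± 0.07 SE for Por (limma adjusted p = 0.841 for both). The intervals of the ratio were 0.735 to 1.15 and 0.763 to 1.11.

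The other members lay closer to 0. Cyp2a1 gave -0.21 and -0.0026 in pool 1 and 0.11 and 0.22 in pool 2. Cyp3a2 gave -0.22 and -0.11 in pool 1 and 0.07 and 0.10 in pool 2. In these genes the pools thus moved in opposite directions on all of their arrays. Cyp2a2 gave -0.06, -0.08, 0.20 and -0.01, and Cyp3a23 gave 0.09, -0.04, 0.09 and 0.09. Cyp3a18 varied least, at -0.03, -0.07, -0.0081 and 0.0023, with an interval of 0.852 to 1.13 for the ratio. Of these 5 genes the limma adjusted p was 0.861 to 0.99. The intervals were 0.766 to 1.36 for Cyp2a1, 0.823 to 1.24 for Cyp2a2, 0.747 to 1.27 for Cyp3a2 and 0.898 to 1.20 for Cyp3a23. They rest on 2 pools, and a p above the threshold does not show that LO and control pools were alike.

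**Figure D3:**
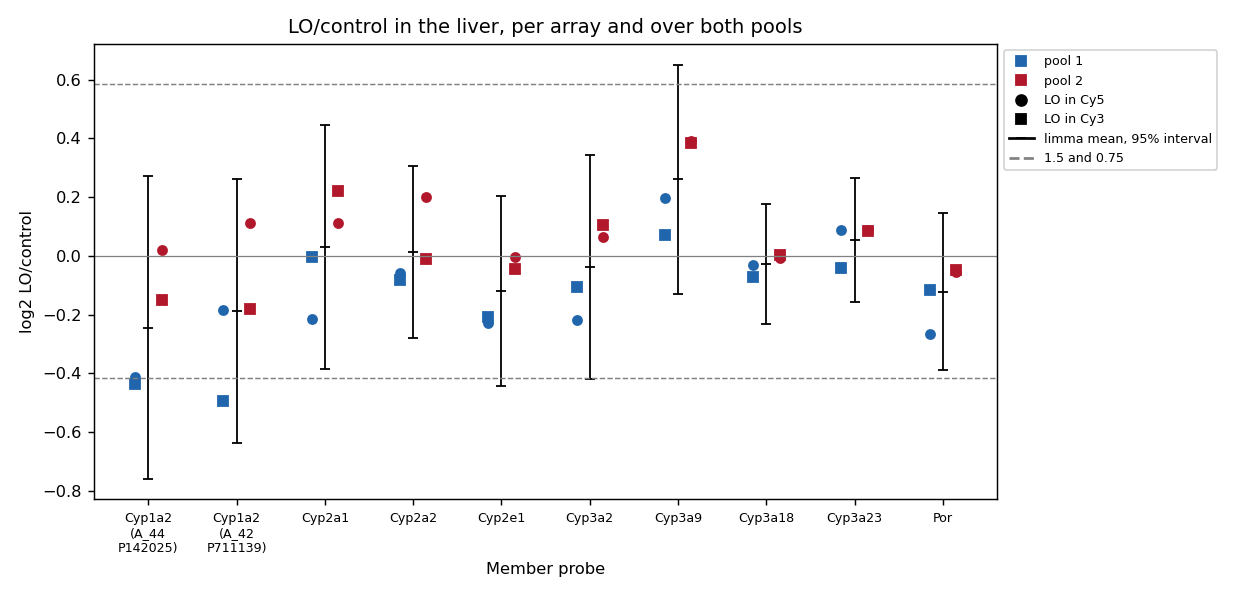
log2 LO/control in the liver for the 10 member probes above background. Points are arrays, coloured by pool with the shape for the dye of LO, and black bars give the limma mean with its 95% interval. Dashed lines mark ratios of 1.5 and 0.75. The means lie between -0.24 (Cyp1a2, A_44_P142025) and 0.26 (Cyp3a9), and every interval spans 0.

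The liver pools differed from each other as well. In the control RNA 9 of 10 member probes were higher in pool 1 than in pool 2, beside 54.6% of the 16317 probes above background on all liver arrays. The exception was Por, at 0.921-fold, which was above 0 without normalization between arrays. Cyp3a9 was 1.52-fold, Cyp3a2 1.38-fold and Cyp3a23 1.31-fold higher in the control of pool 1, and Cyp3a18 was 1.02-fold. Under LO the same ratios were 1.28, 1.16, 1.25 and 0.987. Por (0.836) and both Cyp1a2 probes (0.835 for A_44_P142025 and 0.916 for A_42_P711139) were also lower in pool 1 under LO. Cyp2a1, Cyp2a2 and Cyp2e1 were higher there, at 1.06, 1.07 and 1.06. The direction seen in the control RNA thus did not hold for every probe in the LO RNA. For 7 of 10 member probes the control pools differed more than LO and control did on average, beside 87.8% of all probes above background. The median absolute log2 difference between the control pools was 0.28 for the members and 0.27 for all these probes. The median absolute log2 LO/control was 0.088 for the members and 0.050 for all. Whether the control pools hold different rats is not known, so this spread may be biological or technical.

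**Figure D4:**
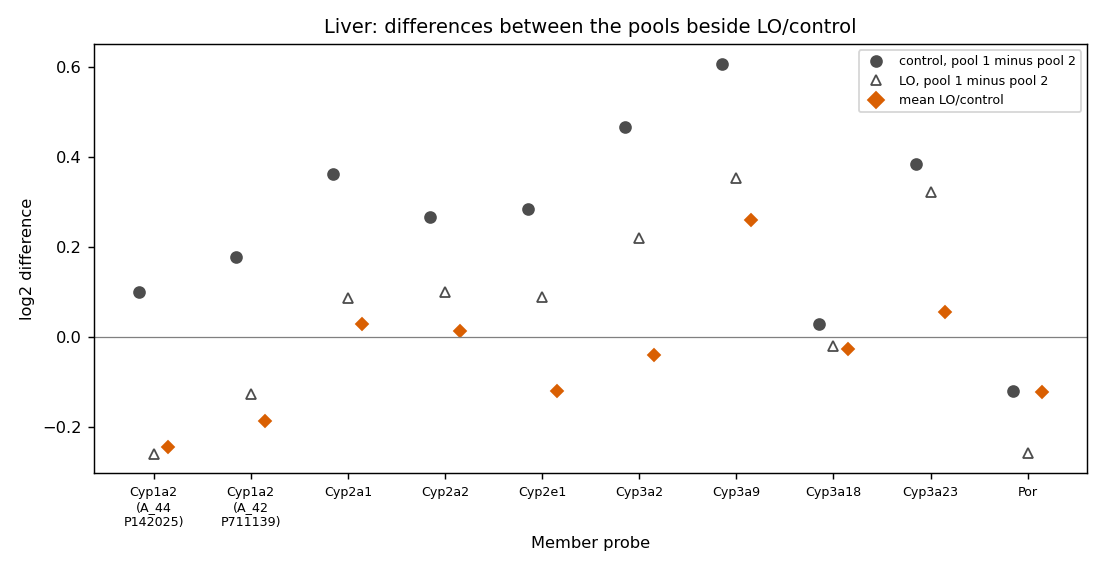
log2 differences in the liver for the 10 member probes above background: pool 1 minus pool 2 in the control RNA (filled circles), the same in the LO RNA (open triangles) and the mean LO/control (diamonds). The largest pool difference in the control is that of Cyp3a9, at 0.61, beside its LO/control of 0.26. Pool differences are taken between arrays and LO/control within arrays.

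Genes of the same pathways were read by the same rules. Of the other P450 genes of families 1 to 3 outside Cyp2c, 14 were on the array, and 0 of their 18 features met the call rule in any tissue. The median log2 LO/control in the liver was -0.0037 over 14 probes above background, beside -0.0016 over all 16317. Cyp2t1 (0.11) and Cyp2d2 (-0.08) lay farthest from 0 in the liver. In the small intestine the median was -0.13 over 15 probes, beside 0.0033 over all 22772. Cyp2b21 there gave -0.58 and -0.26, and Cyp2b12 gave -0.54 and -0.24, both lower under LO on 2 of 2 arrays.

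Of the 17 regulators of P450 genes listed, 16 were on the array, and none met the call rule or the limma threshold. Their median in the liver was 0.0044 over 16 probes. Foxa2, a factor that opens liver enhancers, gave -0.27, -0.41, -0.65 and -0.55 on the 4 liver arrays (mean -0.47, limma adjusted p = 0.83). Cebpa, another liver factor, gave a mean of 0.23 with 3 of 4 arrays above 0 (limma adjusted p = 0.841).

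The measured targets of the receptors outside the members did not pass either. Of 5 genes of the aryl hydrocarbon receptor list on the array, 0 were called in any tissue, with a liver median of 0.02 over 4 probes. This list had 8 genes, and no probe was named as Tiparp, Ahrr or Selenbp1. Ugt1a6, a glucuronosyltransferase, gave the largest value, 0.18, above 0 on 4 of 4 liver arrays (limma adjusted p = 0.83). Of 11 PXR and CAR targets on the array 0 were called, with a liver median of -0.0040 over 11 probes. That list had 14 genes, and no probe was named as Cyp2b1, Cyp2b2 or Gsta5, so these targets were not measured here. Ugt2b1, another glucuronosyltransferase, gave -0.19 and was below 0 on 4 of 4 liver arrays. Alas1, the rate-limiting enzyme of haem synthesis in the liver, gave 0.18 with 3 of 4 arrays above 0 (limma adjusted p = 0.83 for both).

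Among 13 genes for electron donors, haem supply and partners, 0 were called. In the spleen Alad, a haem synthesis enzyme, gave a log2 LO/control of 0.28 and 0.71, above 0 on both arrays. The red cell markers Slc4a1 (0.14 and 0.57) and Hbb (0.35 and 0.23) were also above 0 there, and their part in the Alad value was not tested. Of 24 genes for phase II and transport enzymes on the array 0 were called, with a liver median of -0.05 over 25 probes. Fmo5, a flavin monooxygenase, gave -0.19, with 3 of 4 liver arrays below 0 (limma adjusted p = 0.841). Of 10 sex-dependent liver genes outside the members, 1 met the call rule, in the liver. It was Cyp2c12, known as a female-specific P450 of the rat liver, at 0.85, 0.99, 0.84 and 0.92 on the 4 arrays (mean 0.90, limma adjusted p = 0.83). Over the 13 probes of this list above background in the liver, the median was 0.13, with a range of -0.06 to 0.90. The list was not split by the sex in which a gene is higher, and several of its probes were of Cyp2c7. The median therefore gives no direction for the genes of either sex. Among the members, male-predominant Cyp2a2, Cyp3a2 and Cyp3a18 gave means of 0.01, -0.04 and -0.03 on these arrays. The other member probes above background there gave means from -0.24 (Cyp1a2, A_44_P142025) to 0.26 (Cyp3a9), with 0.03 for Cyp2a1. The sex dependence of these other members was not considered here, so the values do not describe the sex-dependent members as a set.

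The genes closest in pattern were sought among 8890 named probes outside the members, by the root mean square distance of log2 signals over the 8 pools, each centred on its own mean. Por was closest to Clcn3 (0.084) and Impa2 (0.099). Cyp1a1 was closest to Upp1 (0.312) and Serpinb5 (0.319). For the liver-only members the distances were smaller than these last values, with Ttc36 (0.146) and Serpinf2 (0.154) for Cyp1a2 probe A_42_P711139 and Glyatl2 (0.152) and Pemt (0.187) for probe A_44_P142025. Probes of Mat1a came closest to Cyp2a1 (0.159) and Cyp2a2 (0.132), followed by Inhbe (0.209) and Akr1c1 (0.143). Cyp2e1 was nearest to Kng2 (0.139) and Azgp1 (0.231), and Cyp3a2 to Slc27a5 (0.174) and Azgp1 (0.202). Cyp3a23 was nearest to Serpina6 (0.160) and Serpind1 (0.246), and Cyp3a18 to Hsd17b6 (0.122) and Apoc3 (0.219). Cyp3a9 had no close match, the nearest being Aadac at 1.02 and Apoa1 at 1.11. The distances are dominated by the tissue differences and by the dim signals of the other tissues.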

How the data were processed

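RNA of 8 pools was measured on 8 arrays with 2 dyes. The authors extracted the images with Agilent Feature Extraction (version 11.0.1.1, per the submitters' processing notes). They deposited, for each feature, log10 Cy5/Cy3 after LOWESS normalization (a log10 ratio) and a p-value from the single array. They also deposited linear signal intensity values, background-subtracted and dye-normalized, and uncorrected median intensities. The series matrix table that the authors deposited held the log10 ratio of the processed intensities in 100% of features and served as an alternative. The members and gene lists were chosen with earlier results of these data known, although the rule that finds the members uses identifiers only.

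Ratios were turned to LO over control on the log2 scale. The 34 non-uniform features were left out, copies were averaged, and 30592 of 40979 probes were above background on at least 2 arrays. limma (3.58.1, R 4.3.3) gave moderated tests with Benjamini-Hochberg adjustment at 0.05, over 2 liver pools for LO and over 8 pools, with treatment as a term, for levels. p-values measure only the spread between these pools, which may be technical. The tissues were taken from the same groups of rats, so the 8 pools are not independent sets of animals. A dim tissue entered a fold at the higher of its own value and the lowest signal above background. The limma tests used its own value. A repeated probe was called above background if at least 0.5 of its copies were. Files hold no symbols, and RefSeq (GRCr8) identifiers named 10768 probes. The text names every member and, of each list, the genes called or else the pair farthest from 0 among probes above background, except 1 gene that is not reported here.

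Arrays with the same replicate number, which is the dye orientation in the labels, deviated together from the mean of their pair (correlations of 0.554 to 0.805). Single-array LO/control values thus went with the dye. Between the 2 arrays of a pair, log2 LO/control correlated at -0.72 to -0.60. Over probes above background in both channels this was -0.58 to -0.40. Between the 2 liver pools the correlation was 0.19 over 16317 probes above background in both channels. On 30592 simulated probes with 200 changed by 2 on the log2 scale, the liver fit recovered 200 and the level fit 200, with 11 and 4 unchanged probes called. Every simulated probe of a fit had the same SD, the median of the tested probes, which was 0.10 between the liver pools. In the data this SD was 0.034 for Cyp3a18 and 0.25 for Cyp1a2 probe A_44_P142025. The recovery therefore checks the fit and does not give its power in these data. Smaller changes were not simulated. Tables were made in Python 3.11.15 with pandas 2.3.3, Biopython 1.88 and scipy 1.17.1, and figures with matplotlib 3.10.9. The number of arrays and pools limits the precision. Alternatives were the P threshold, cut-offs, background correction, filter, scaling, replicate block, and each replicate or liver pool left out.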

Additional observations from a re-analysis of the deposited data

Results flagged for a closer look

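In the liver the log2 LO/control of Cyp3a23 stood apart on 1 of 4 arrays. The second array of pool 1 gave -0.04 against 0.09 on the others, a gap of 0.986 of the whole range, above Dixon's critical value for 4 samples. The range itself was small, and chance flags about 1 in 20 such groups.

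The log2 LO/control of Cyp2a1 was below 0 on both arrays of liver pool 1 and above 0 on both arrays of pool 2, a difference of -0.28 (-0.2761). Cyp3a2 did the same, with a difference of -0.25 (-0.2479). The differences between the pools were not tested.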

How the results depend on the processing

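The count of member features called under LO stayed at 0 under every alternative in the small intestine and the liver, and in the spleen it was 1 without the P threshold and 0 otherwise. In the liver limma fit it was 0 except with normexp and loess, which called 1 member (Cyp3a9) and 150 of all probes, against 0 in the main setting and 2 among probes above background on all liver arrays. In the level comparisons the member calls of the small intestine against the spleen went from 5 to 3 in the control pools alone. Those of the liver went there from 8 higher and 3 lower to 8 and 2 against the small intestine. Against the spleen they went from 11 higher to 9. Normexp and loess gave 10 higher in the liver than in the spleen, and so did no normalization between arrays. For the small intestine against the spleen these gave 4 higher and 0 lower, and 4 and 2, against 4 and 1 in the main setting. The control pools alone called 6837 of all probes for liver against small intestine, 10103 for liver against spleen and 3642 for small intestine against spleen, against 19824, 21482 and 15976 with all pools.

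With a replicate block, the 4 liver arrays gave 0 member calls, as did all 8 arrays, also in the small intestine and the spleen, where every member had a limma adjusted p of 1. With the block over 16 channels the level calls were 11, 11 and 5, and the block changed no other call of the members. Leaving out a replicate or a liver pool gave 0 to 0 member calls under LO in each tissue and in the liver fit. It gave 11 to 11, 10 to 11 and 4 to 6 in the level comparisons, in the order above. The call rule itself depended on having both dye orientations. With either replicate left out it called 446 to 1027 features in the small intestine, 297 to 722 in the spleen and 507 to 636 in the liver, against 9, 7 and 4. Without liver pool 1 the liver value of Cyp3a2 was 0.08 against -0.04, and without liver pool 2 that of Cyp2a1 was -0.11 against 0.03 and that of Cyp2a2 -0.07 against 0.01. Without replicate 1 the liver value of Cyp2a2 was -0.05. Without replicate 2 that of Cyp2a1 was -0.05, and that of Cyp1a1, not above background there, was -1.12 against 0.25. Members that were not above background gave only bounds, and a difference in them was not detectable with these arrays. The causes of these changes were not tested.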
